A study of Mus musculus with 16 samples.

Results

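The genes described here are the secreted Slit ligands Slit1, Slit2 and Slit3, their Roundabout receptors Robo1, Robo2 and Robo3, the secreted guidance cue netrin-1 (Ntn1) and the netrin receptors Dcc, Unc5a and Unc5d. They were chosen by gene symbol, and all 10 were found among the 26625 entries of the gene table. The RNA came from the medial prefrontal cortex (mPFC) of 16 male C57BL/6 mice. It was read on the Oxford Nanopore platform as cDNA amplified by PCR. The age of the mice used is given as 8 to 10 weeks, without saying at which step. Before conditioning, every mouse had received an AAV vector in both sides of the mPFC, in which a U6 promoter drives a short hairpin RNA and a CMV promoter drives EGFP. Neither promoter is restricted to neurons, so the vector alone does not limit the knockdown to one cell type. The hairpin was either a control sequence (Ctrl) or one against Kdm7a (Kdm7a-shRNA), which encodes a demethylase of histone H3. The mice then underwent 10 days of conditioned place preference, with saline or with morphine (10 mg/kg) and saline on alternate days. Tissue was taken on day 17, after 7 days of withdrawal, directly after the second preference test that followed conditioning. There were 3 Ctrl + Saline mice, 4 Ctrl + Morphine mice, 5 Kdm7a-shRNA + Saline mice and 4 Kdm7a-shRNA + Morphine mice.

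Slit proteins bind Robo receptors on growing axons and repel them, and the pair also shapes dendrites and steers migrating neurons. Netrin-1 attracts axons through Dcc and repels them through receptors of the Unc5 family, alone or together with Dcc. The same molecules remain in the adult brain, where netrin-1 and Dcc are known for roles in the wiring of the prefrontal cortex and in excitatory synapses.

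Each mouse had between 6596991 and 12418112 counted reads. Kdm7a, the targeted gene, was at 9.42 ± 0.353 normalized CPM (reads relative to the library total after TMM scaling; mean ± SD, n = 3) in Ctrl + Saline and at 5.55 ± 0.571 (n = 5) in Kdm7a-shRNA + Saline, and these groups did not overlap. It was at 7.72 ± 1.13 (n = 4) in Ctrl + Morphine and at 4.94 ± 1.53 (n = 4) in Kdm7a-shRNA + Morphine, which overlapped. The knockdown difference in Kdm7a on the log2 scale was -0.76 (SE 0.204, adjusted p = 0.0153) under saline and -0.67 (SE 0.206, adjusted p = 0.0506) under morphine, both by edgeR's quasi-likelihood test with Benjamini-Hochberg adjustment, as are all adjusted p-values in the text unless another test is named. No neuron or excitatory neuron marker was at 0 in all mice. The same held for every marker list used here, including those of striatal neurons and choroid plexus. It therefore does not test the tissue label. A gene is said to have passed where the fold was 1.5 or more, in either direction, with an adjusted p below 0.05.

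The members were sparse in these libraries. The mean count per mouse was 200.3 for Robo2, 154.5 for Unc5a, 81.7 for Slit2, 55.1 for Slit1, 51.4 for Robo1, 23.3 for Robo3, 16 for Slit3, 15.3 for Ntn1, 11.1 for Unc5d and 3.75 for Dcc. Dcc, with 60 reads over all mice, did not pass the filter on low counts, so 9 of the 10 members were tested. The number of reads per gene depends on how much of each transcript is carried through the library preparation, so levels were compared between mice and not between genes.

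On the GRCm38 assembly (GENCODE vM21), the Slit genes lie at chr19:41600257-41743665 (Slit1, minus strand), chr5:47983138-48307733 (Slit2, plus strand) and chr11:35121224-35708507 (Slit3, plus strand). Robo1 (chr16:72308306-73046095, plus strand) and Robo2 (chr16:73891839-74411825, minus strand) are neighbours on one chromosome. Robo3, at chr9:37415669-37433246 on the minus strand, spans 17.6 kb, against 738 kb for Robo1 and 520 kb for Robo2. Ntn1 lies at chr11:68209364-68400823 (minus strand), Unc5a at chr13:54949411-55006018 (plus strand) and Unc5d at chr8:28646717-29219636 (minus strand). The 3′ end of Unc5a overlaps Hk3 on the other strand, and an antisense gene overlaps Slit2. The use of strand in counting is not given in the sources used here. It is therefore not known whether every read in these overlaps was assigned to the right gene.

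Slit2 and Slit3 each carry a copy of the microRNA gene for miR-218 in an intron, on the same strand as the host. Mir218-1 lies at chr5:48223942-48224051 and Mir218-2 at chr11:35616816-35616925, and neither hairpin overlaps an annotated exon of its host. The mature product of both copies is the same RNA, shown here because it is the sequence feature that separates these genes from Slit1 (RefSeq, GRCm38.p6; the capitals mark the seed, bases 2 to 8, which pairs with target RNAs). The microRNA itself was not measured.
mmu-miR-218-5p: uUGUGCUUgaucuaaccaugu

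RefSeq promoter sequences on GRCm38.p6 were matched for 6 of the 10 members. Those of the receptors Robo3 and Unc5a are shown, because their mean levels were highest in Ctrl + Morphine mice, and they are cut where the earliest annotated transcript begins. The capitals mark the GC box GGGCGG, read on either strand. The Robo3 window is chr9:37433247-37433425 (minus strand, 179 bases, 58.1% G and C) and the Unc5a window is chr13:54949161-54949410 (plus strand, 250 bases, 76.8% G and C).
Robo3: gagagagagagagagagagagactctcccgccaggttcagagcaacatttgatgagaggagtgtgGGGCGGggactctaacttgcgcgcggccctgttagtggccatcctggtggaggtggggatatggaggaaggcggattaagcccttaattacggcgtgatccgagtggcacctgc
Unc5a: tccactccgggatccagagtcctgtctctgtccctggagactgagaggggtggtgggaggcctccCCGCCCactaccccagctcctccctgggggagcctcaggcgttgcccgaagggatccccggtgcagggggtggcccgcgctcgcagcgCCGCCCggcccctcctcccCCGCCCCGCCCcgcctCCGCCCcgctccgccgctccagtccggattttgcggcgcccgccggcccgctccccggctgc
The Robo3 window held 1 GC box and the Unc5a window 5, of which a pair share a base. Of 32851 RefSeq promoters, 20.9% hold a GC box in a window of the Robo3 length and 32.7% in one of the Unc5a length. For the Robo3 length, in Robo3 and in all promoters, these are the first 179 of the 250 bases before the RefSeq start. The bases nearest that start are left out. The cAMP response element TGACGTCA and its shorter form TGACG, the E-box CACGTG and the TATA sequence TATAAA, read on either strand, had 0 matches in both windows. In the Unc5a length these are held by 1.55%, 17.8%, 6.02% and 12.4% of promoters, and in the Robo3 length by 0.575%, 10.6%, 3.67% and 8.34%.

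Slit1 was the ligand with the clearest pattern across the groups. Its normalized CPM was 5.02, 3.42 and 5.83 in the Ctrl + Saline mice and 9.29, 10.5, 8.89 and 9.95 in the Ctrl + Morphine mice. In the Kdm7a-shRNA + Saline mice it was 6.43, 5.41, 2.96, 6.86 and 6.93, and in the Kdm7a-shRNA + Morphine mice 1.69, 5.16, 4.55 and 5.77. All 4 Ctrl + Morphine mice thus lay above all 12 other mice, which 0.409% of the 18826 tested genes also did. That share was taken for this group and direction alone, the pattern Slit1 shows. It is a description and not a chance level for Slit1. The knockdown lowered Slit1 under morphine by a log2 difference of -1.15 (SE 0.292, adjusted p = 0.0213), a level 2.22-fold lower, and the groups did not overlap, as for 7.51% of all genes in that direction. The call was lost without Kdm7a-shRNA + Morphine mouse 3 (adjusted p = 0.0559) or Ctrl + Morphine mouse 4 (adjusted p = 0.0603). The log2 differences in these fits were -1.18 and -1.14. In all, 568 and 578 genes passed in them, against 1448 with all mice. Why the call was lost was not tested. Under saline the knockdown difference was 0.28 (SE 0.310, adjusted p = 0.554), with overlapping groups. Morphine under the control virus gave 1.03 (SE 0.319, unadjusted p = 0.00465, adjusted p = 0.208) and did not pass although its groups did not overlap. Slit1 was chosen with earlier results of these samples known, so its direction here is not independent evidence. In whole tissue, fewer cells of a type and less RNA per cell cannot be told apart, which holds for every result here.

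**Figure D1:**
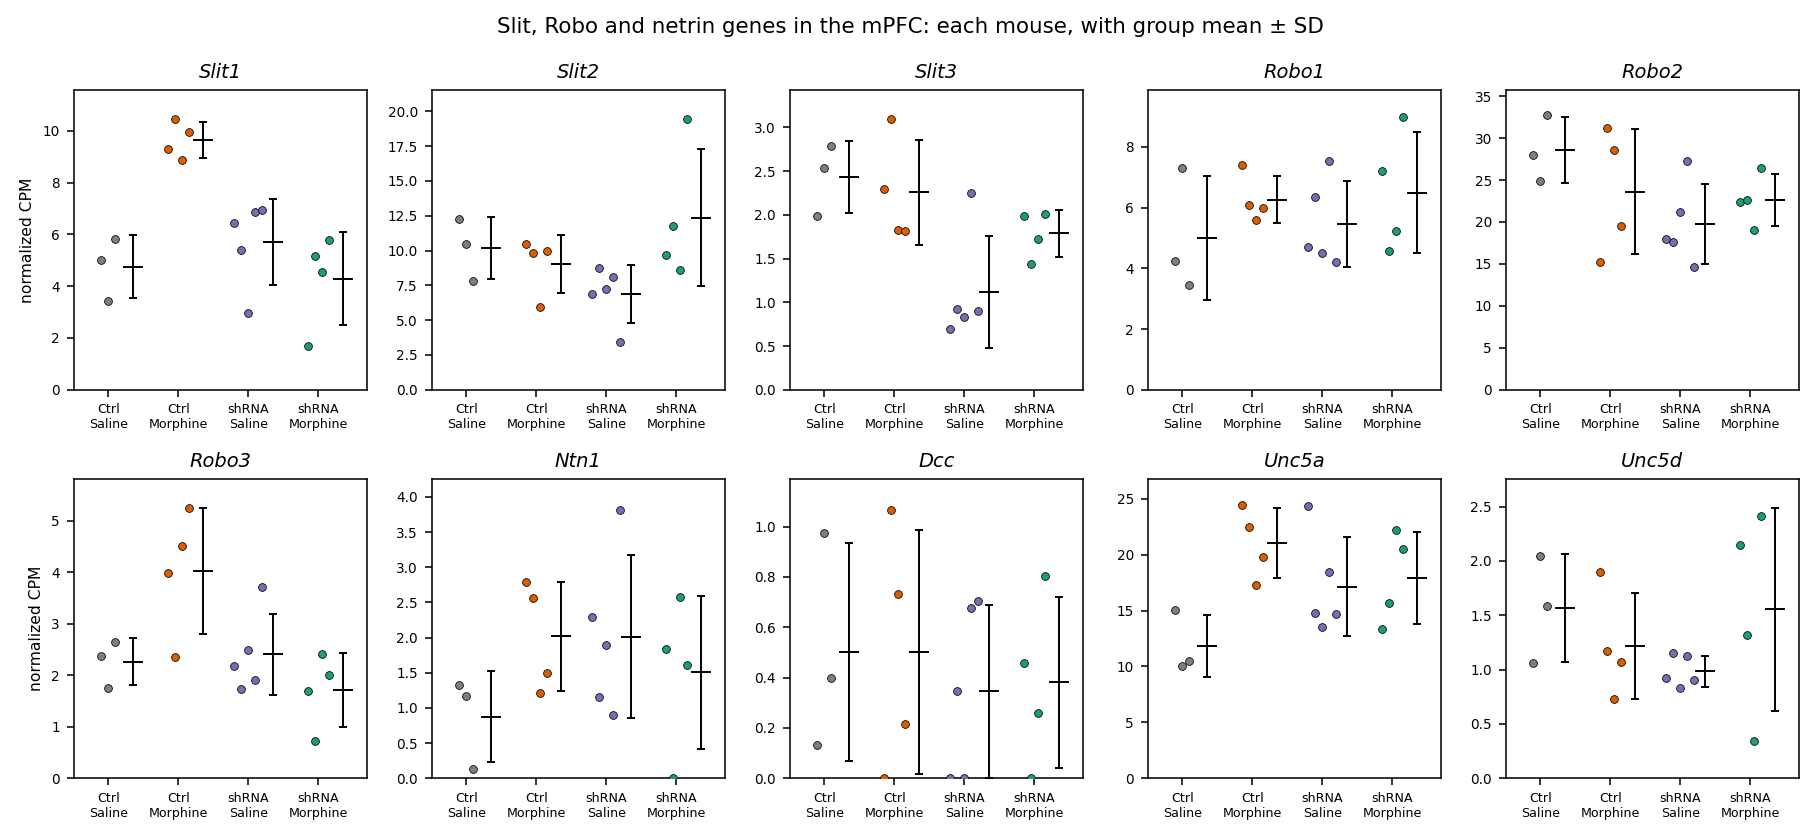
Normalized CPM (y axis, linear from 0, a separate scale for each gene) of the 10 members in each of the 16 mice, by group (x axis); each point is 1 mouse and the bars beside them are the group mean ± SD. The 4 Ctrl + Morphine mice sit between 8.89 and 10.5 for Slit1, above all other mice, and 4 of the 5 Kdm7a-shRNA + Saline mice sit below 1 for Slit3.

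Slit2, the ligand most studied at the midline and in migrating interneurons, was at 12.3, 10.4 and 7.82 normalized CPM in Ctrl + Saline and at 10.5, 9.82, 5.96 and 9.95 in Ctrl + Morphine. It was at 6.89, 8.76, 7.23, 8.10 and 3.42 in Kdm7a-shRNA + Saline and at 9.65, 11.8, 8.59 and 19.5 in Kdm7a-shRNA + Morphine. The highest level was that of the 1 Kdm7a-shRNA + Morphine mouse at 19.5, and every pair of groups overlapped. The morphine difference under the knockdown was 0.84 on the log2 scale (SE 0.271, unadjusted p = 0.00609, adjusted p = 0.589) and did not pass. The knockdown differences were -0.57 (SE 0.295, adjusted p = 0.180) under saline and 0.44 (SE 0.282, adjusted p = 0.356) under morphine.

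Slit3 was lower after knockdown in saline mice. Its normalized CPM was 1.98, 2.54 and 2.78 in Ctrl + Saline against 0.689, 0.922, 0.829, 2.25 and 0.905 in Kdm7a-shRNA + Saline. Only 1 of the 5 knockdown mice, at 2.25, reached the control range. The log2 difference was -1.11 (SE 0.345, adjusted p = 0.0302), a level 2.16-fold lower, and rests on 6 to 26 reads a mouse. Slit3 was at 2.30, 3.09, 1.83 and 1.82 in Ctrl + Morphine and at 1.99, 1.44, 1.72 and 2.01 in Kdm7a-shRNA + Morphine, a difference of -0.34 (SE 0.327, adjusted p = 0.552). Averaged over both treatments the knockdown difference was -0.73 (SE 0.238, adjusted p = 0.0294), where 17.6% of all genes passed in either direction and 9.93% passed with lower values. The averaged call was lost without any 1 of 8 of the 16 mice, with adjusted p-values up to 0.0694 (without Ctrl + Saline mouse 3). The test of whether the knockdown difference varied with treatment gave 0.77 (SE 0.476, adjusted p = 0.608). The saline call was lost without any 1 of 6 of the 8 saline mice, with adjusted p-values up to 0.109, and when the saline groups were fitted alone (adjusted p = 0.0638).

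Of the receptors, Robo3 differed under morphine. Mammalian Robo3 is known from commissural axons, where it acts with Dcc and does not bind Slits as Robo1 and Robo2 do. Its normalized CPM was 3.99, 2.35, 4.50 and 5.24 in Ctrl + Morphine and 1.69, 0.719, 2.41 and 2.01 in Kdm7a-shRNA + Morphine. A single mouse of each group, at 2.35 and 2.41, made the groups overlap. The log2 difference was -1.21 (SE 0.340, adjusted p = 0.0330), a level 2.31-fold lower. Ctrl + Saline mice were at 2.38, 1.76 and 2.65 and Kdm7a-shRNA + Saline mice at 2.18, 1.73, 2.49, 1.91 and 3.72, a difference of 0.11 (SE 0.357, adjusted p = 0.860) that turned to -0.02 when libraries were scaled by total count alone. Morphine under the control virus gave 0.84 (SE 0.362, unadjusted p = 0.0329, adjusted p = 0.369). The call under morphine rests on 6 to 49 reads a mouse, was lost when any 1 of 5 of the 8 mice compared was left out, with adjusted p-values up to 0.114, and was lost when both groups were fitted alone (adjusted p = 0.0804).

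Robo1 and Robo2, the main Slit receptors of forebrain axons, did not pass in any comparison. Robo1 ranged from 3.44 to 7.32 normalized CPM in Ctrl + Saline, from 5.60 to 7.39 in Ctrl + Morphine, from 4.22 to 7.54 in Kdm7a-shRNA + Saline and from 4.56 to 8.99 in Kdm7a-shRNA + Morphine. Its log2 differences in the 4 comparisons between groups lay between 0.04 and 0.31, and its sign in both knockdown comparisons depended on the scaling. Robo2 was at 28.0, 24.9 and 32.7 in Ctrl + Saline, at 15.3, 31.2, 28.6 and 19.5 in Ctrl + Morphine, at 17.9, 17.6, 21.2, 27.2 and 14.7 in Kdm7a-shRNA + Saline and at 22.4, 22.7, 19.0 and 26.4 in Kdm7a-shRNA + Morphine. Its knockdown difference under saline was -0.53 (SE 0.219, unadjusted p = 0.0261, adjusted p = 0.0943), with 1 knockdown mouse inside the control range. Scaled by total count alone, that difference passed.

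Netrin-1 was measured from 0 to 38 reads a mouse. It was at 1.32, 1.17 and 0.132 normalized CPM in Ctrl + Saline, at 2.80, 2.56, 1.22 and 1.5 in Ctrl + Morphine, at 2.30, 1.15, 1.90, 0.9 and 3.82 in Kdm7a-shRNA + Saline and at 1.84, 0, 2.58 and 1.61 in Kdm7a-shRNA + Morphine. The count of 0 in 1 mouse allows up to 0.360 normalized CPM (3 counts), a limit that covers counting error only, since PCR copies without molecular identifiers are not independent molecules. The differences from Ctrl + Saline were 1.17 (SE 0.731, adjusted p = 0.567) for morphine and 1.17 (SE 0.708, adjusted p = 0.254) for knockdown, and in both comparisons its standard error was the largest among the members.

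Dcc, the attractive netrin receptor, was listed with 0 to 10 reads a mouse. It was at 0 in 4 of the 16 mice, each of which allows up to 0.300 to 0.360 normalized CPM. The group means were 0.502 ± 0.431 (SD, n = 3) in Ctrl + Saline, 0.503 ± 0.485 (n = 4) in Ctrl + Morphine, 0.345 ± 0.345 (n = 5) in Kdm7a-shRNA + Saline and 0.381 ± 0.340 (n = 4) in Kdm7a-shRNA + Morphine. Differences in Dcc were not detectable at this depth.

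Unc5a, a repulsive netrin receptor, had its lowest group mean in Ctrl + Saline mice, which were at 15.1, 10.1 and 10.5 normalized CPM. It was at 24.5, 22.5, 17.3 and 19.8 in Ctrl + Morphine, at 24.4, 14.7, 13.5, 18.4 and 14.7 in Kdm7a-shRNA + Saline and at 13.3, 15.7, 22.2 and 20.5 in Kdm7a-shRNA + Morphine. All Ctrl + Morphine mice lay above all Ctrl + Saline mice, as they did for 7.04% of all genes. The log2 difference was 0.83 (SE 0.230, unadjusted p = 0.00206, adjusted p = 0.166) and did not pass, whereas the DESeq2 Wald test gave 0.81 with an adjusted p of 0.0492. The knockdown difference was 0.54 (SE 0.222, adjusted p = 0.0963) under saline and -0.22 (SE 0.206, adjusted p = 0.537) under morphine.

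Unc5d, a receptor of the same family known from migrating cortical neurons, was at 1.06, 2.05 and 1.59 normalized CPM in Ctrl + Saline and at 0.919, 1.15, 0.829, 1.12 and 0.905 in Kdm7a-shRNA + Saline. The difference of -0.68 (SE 0.461, adjusted p = 0.315) did not pass, and the groups overlapped. Under morphine it ranged from 0.730 to 1.90 with the control virus and from 0.344 to 2.42 with the knockdown, a difference of 0.27 (SE 0.447, adjusted p = 0.753).

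The comparison of morphine under the control virus asks what morphine withdrawal changes without the hairpin against Kdm7a. It gave 0 of 9 members by edgeR, where 0% of the 18826 genes passed. Kdm7a itself ranged from 6.19 to 8.89 normalized CPM in Ctrl + Morphine and from 9.08 to 9.78 in Ctrl + Saline. Its difference was -0.29 on the log2 scale (SE 0.212, adjusted p = 0.643) and did not pass. Unadjusted p-values under 0.05 were found for 3 members, Slit1, Robo3 and Unc5a, all with positive differences, against 11.7% of all genes. DESeq2 called 1 member, Unc5a, and 185 genes in all. The median difference of the 9 members was 0.31, against -0.01 over all tested genes.

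Knockdown under morphine, which asks what the hairpin changes in conditioned mice, gave 2 of 9 members, Slit1 and Robo3, both lower, where 7.69% of all genes passed and 4.83% passed with lower values. The median member difference was -0.22, against -0.0045 over all genes. The morphine comparison under the control virus and this one share the 4 Ctrl + Morphine mice, so a high level in those mice alone gives opposite signs in both.

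Knockdown under saline gave 1 of 9 members, Slit3, where 16.7% of all genes passed and 9.31% passed with lower values. This comparison shares the 3 Ctrl + Saline mice with the first. Morphine under the knockdown gave 0 members by edgeR and by DESeq2, where 0.00531% of all genes passed by edgeR, and 1 member (Slit2) with an unadjusted p-value under 0.05, against 7.02% of all genes.

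The test of the interaction, the knockdown difference under morphine minus that under saline, gave 0 of 9 members by edgeR and by DESeq2, where 0.085% of all genes passed by edgeR. Unadjusted p-values under 0.05 were found for 4 members, against 10.7% of all genes. These were Slit1 at -1.43 (SE 0.427, adjusted p = 0.193), Robo3 at -1.32 (SE 0.494, adjusted p = 0.317), Unc5a at -0.76 (SE 0.302, adjusted p = 0.353) and Slit2 at 1.01 (SE 0.409, adjusted p = 0.364). For Slit1 and Robo3, which passed under morphine and not under saline, the difference between those knockdown differences was therefore not established.

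**Figure D2:**
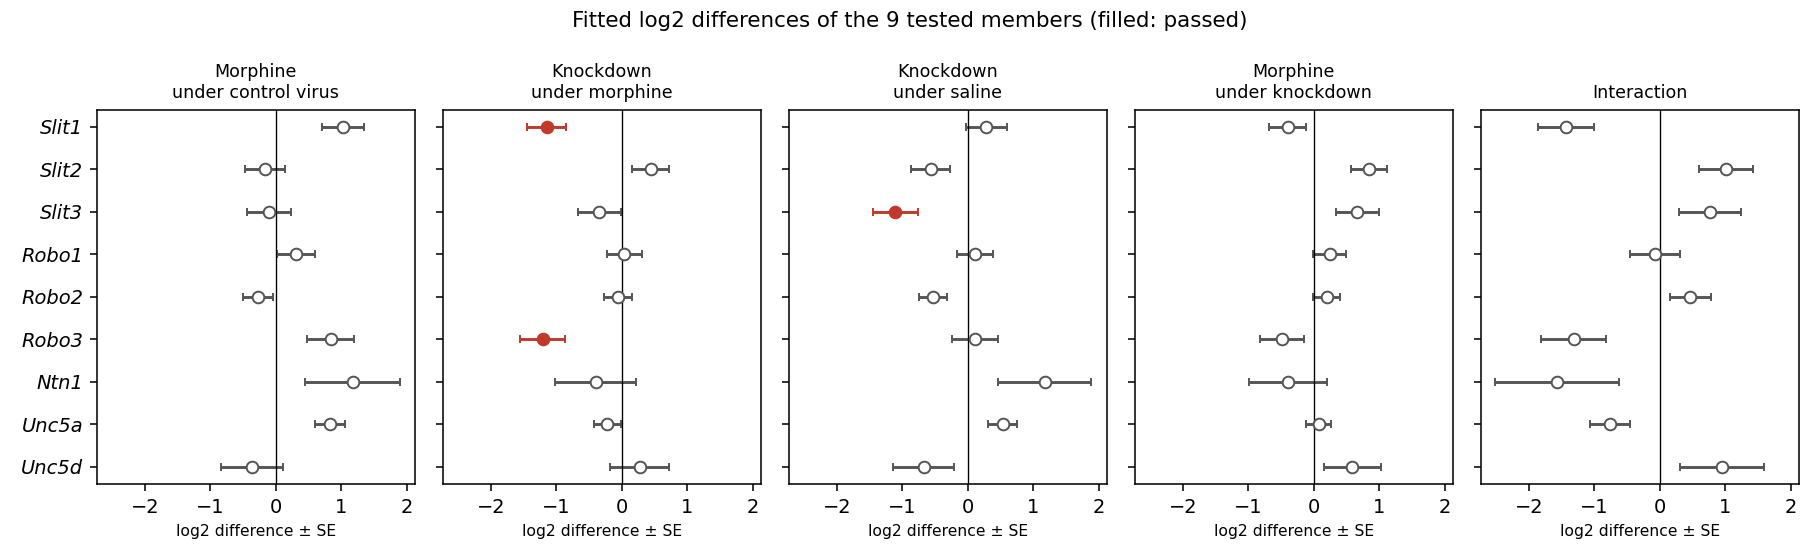
Fitted log2 differences with their standard errors (x axis, the same scale in each panel) of the 9 tested members (y axis) in the 4 comparisons between groups and the interaction; filled red points passed. Slit1 at -1.15 and Robo3 at -1.21 passed with the knockdown under morphine and Slit3 at -1.11 with the knockdown under saline.

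Within each family, the make-up of the reads was compared in a way that does not depend on scaling between mice. Slit1 made up 46.5% ± 4.80 (SD, n = 4) of all Slit reads in Ctrl + Morphine, from 42.1% to 53.3%, and 23.1% ± 8.06 (n = 4) in Kdm7a-shRNA + Morphine, from 12.6% to 30.6%, so these groups did not overlap. The share was 27.4% ± 7.43 (n = 3) in Ctrl + Saline, also below every Ctrl + Morphine mouse, and 42.0% ± 12.9 (n = 5) in Kdm7a-shRNA + Saline, which overlapped every other group. Slit2 made up 66.4% ± 6.85 of the Slit reads in Kdm7a-shRNA + Morphine and 42.8% ± 5.21 in Ctrl + Morphine. Robo3 made up 12.4% ± 4.86 of the Robo reads in Ctrl + Morphine, from 5.93% to 17.1%, and 5.59% ± 2.65 in Kdm7a-shRNA + Morphine, from 2.58% to 9.03%. In the saline groups the Robo3 share was 6.29% ± 0.968 with the control virus and 9.20% ± 4.32 with the knockdown. Robo2 held the most Robo reads in every group, with means between 68.3% and 79.5%. The shares are descriptions of the values that the tests above already use.

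**Figure D3:**
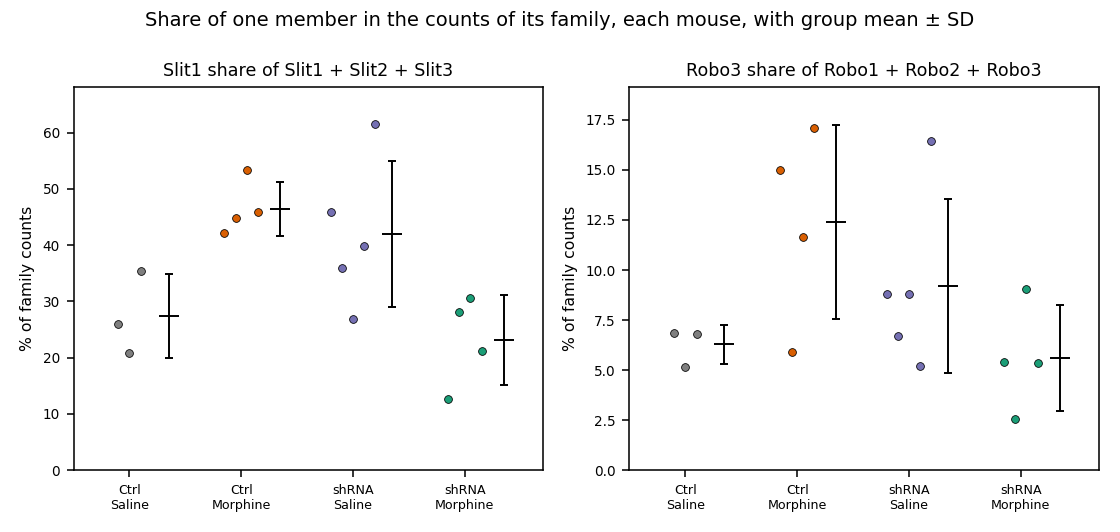
Slit1 as a percentage of the summed Slit1, Slit2 and Slit3 reads (left) and Robo3 as a percentage of the summed Robo1, Robo2 and Robo3 reads (right), both y axes from 0; each point is 1 mouse, and the bars are the group mean ± SD. The Slit1 share lay between 42.1% and 53.3% in Ctrl + Morphine and between 12.6% and 30.6% in Kdm7a-shRNA + Morphine.

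Of 51 further genes of these pathways, 48 were tested. With the knockdown under morphine, where 7.69% of all genes passed, 1 of the 48 did so. It was Trim67, a ubiquitin ligase that binds Dcc, at a log2 difference of -2.41 (SE 0.626, adjusted p = 0.0236). Its level was 2.26 ± 0.271 normalized CPM (n = 4) in Ctrl + Morphine and 0.424 ± 0.330 (n = 4) in Kdm7a-shRNA + Morphine, from 0 to 6 reads a mouse. With the knockdown under saline, 3 genes passed with higher and 1 with lower values, against 16.7% of all genes in either direction. The lower gene was Ntng1, which encodes the membrane-anchored netrin-G1 and does not bind Dcc, at -0.62 (SE 0.174, adjusted p = 0.0189), with 11.7 ± 1.37 normalized CPM (n = 3) in Ctrl + Saline and 7.63 ± 1.17 (n = 5) in Kdm7a-shRNA + Saline. The higher genes were Robo4, the Robo of endothelial cells, at 1.44 (SE 0.477, adjusted p = 0.0414), Dag1, the Slit-binding dystroglycan, at 0.64 (SE 0.159, adjusted p = 0.0103), and the small GTPase Rhoa at 0.74 (SE 0.188, adjusted p = 0.0116). Scaled by total count alone, Robo4 no longer passed (1.30, adjusted p = 0.0517), and Dag1 fell short of the fold limit at 0.50.

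Averaged over both treatments, Robo4 (0.91, adjusted p = 0.0408) and Dock1, an activator of Rac1 downstream of Dcc (0.66, adjusted p = 0.0143), were higher, and Trim67 (-1.87, adjusted p = 0.00409) was lower. These were 3 of the 48, where 17.6% of all genes passed. Under the same scaling Robo4 (0.79, adjusted p = 0.0649) and Dock1 (0.53) did not pass. None of the 12 Robo effectors on the list, among them the Srgap and Abl genes, passed in any of the comparisons by edgeR, and DESeq2 called 1, Arhgap39, with the knockdown under saline. In both morphine comparisons and in the interaction, 0 of the 48 passed by edgeR and 0 by DESeq2, with 5, 0 and 6 genes at an unadjusted p-value under 0.05 with morphine under the control virus, with morphine under the knockdown and in the interaction, against 11.7%, 7.02% and 10.7% of all genes.

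Markers of several cell types differed between the groups, and their part in the results above was not tested. The summed normalized CPM of 5 microglia markers was 479 to 580 in Ctrl + Saline, 273 to 510 in Ctrl + Morphine, 709 to 2046 in Kdm7a-shRNA + Saline and 482 to 1866 in Kdm7a-shRNA + Morphine, and 4 of the 5 passed with higher values with the knockdown under saline. The 5 endothelial markers summed to 156 to 190, 160 to 196, 204 to 306 and 182 to 336 in the same order, with 3 of 5 higher under saline, the same comparison in which Robo4 was higher. The 5 astrocyte markers summed to 344 to 491, 267 to 499, 472 to 1008 and 386 to 984. With the knockdown, 2 of the 5 passed with higher values under saline and 0 under morphine. The 5 oligodendrocyte markers summed to 7251 to 12587, 6814 to 12707, 8157 to 17733.5 and 8628 to 19397. Of these, 0 passed with the knockdown under saline or under morphine. The 7 inhibitory neuron markers summed to 493 to 554, 523 to 547, 333 to 441 and 363 to 485. Under saline, 3 of them were lower (Gad2, Sst and Vip) and 2 higher (Slc32a1 and Pvalb). The 5 excitatory neuron markers summed to 1027 to 1441, 997 to 1550, 695 to 1207 and 845 to 1467. The 5 upper-layer markers summed to 190 to 227, 207 to 233, 121 to 215 and 68.2 to 231. The median log2 differences with the knockdown under saline were -0.43 (excitatory) and -0.40 (upper-layer). Under morphine they were -0.37 and -0.35. Of these markers, 1 upper-layer marker passed under saline, with lower values, and 0 passed under morphine. With the knockdown under morphine, 2 of the 5 microglia markers (Cx3cr1 and C1qa) and 1 of the 5 endothelial markers (Pecam1) passed with higher values, and of the inhibitory neuron markers Pvalb was higher and Sst lower. Of all genes, 16.7% passed with the knockdown under saline and 7.69% under morphine. No marker on these lists was at 0 in all mice.

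Slit1 was highest in Ctrl + Morphine, where the sums of 2 marker lists were also above those of Ctrl + Saline. The 6 markers of striatal neurons summed to 117 to 146 normalized CPM in Ctrl + Morphine and to 68.6 to 90.8 in Ctrl + Saline, and the 6 deep-layer markers to 118 to 129 against 100 to 114. In the knockdown groups the striatal sums were 60.7 to 155 under saline and 73.9 to 108 under morphine, and the deep-layer sums 84.1 to 115 and 87.6 to 118. The median log2 difference with morphine under the control virus was 0.14 for the striatal and 0.26 for the deep-layer markers. In that comparison 0 of the 6 striatal and 0 of the 6 deep-layer markers passed by edgeR, with 1 of each list at an unadjusted p-value under 0.05. With the knockdown under morphine the medians were -0.18 for the striatal and -0.52 for the deep-layer markers, and 0 of each list passed, with 1 striatal and 5 deep-layer markers at an unadjusted p-value under 0.05. In the earlier group order, the 6 meningeal fibroblast markers summed to 22.3 to 62.1, 33.5 to 68.3, 52.1 to 72.6 and 35.0 to 69.3. Kdm7a-shRNA + Saline mouse 4, which had the highest Slit3 of its group (2.25), had a fibroblast sum of 56.2. This mouse had the highest excitatory neuron sum of its group, 1207, the highest upper-layer sum, 215, and the lowest microglia sum, 709. Its astrocyte sum of 492 was not the lowest, which was 472 in mouse 1 of that group. Mouse 1 ranked next to mouse 4 in the excitatory (979), upper-layer (191) and microglia (966) sums. It nevertheless had the lowest Slit3 of the group, 0.689. The relation of Slit3 to these sums was not tested.

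**Figure D4:**
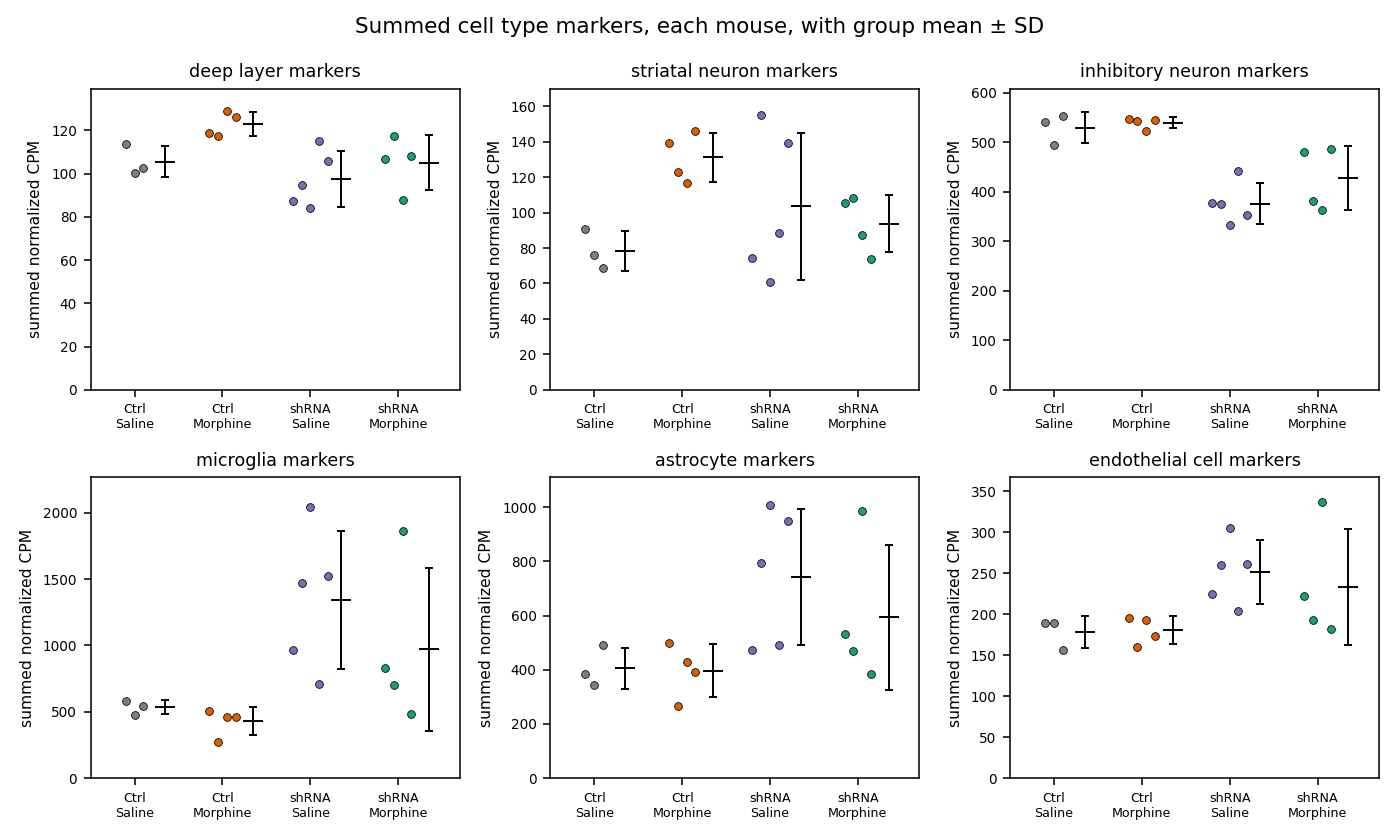
Summed normalized CPM of the markers of 6 cell classes (y axes from 0, a separate scale for each) in each mouse by group, with the group mean ± SD beside the points. Deep-layer and striatal sums in all 4 Ctrl + Morphine mice lay above those of all 3 Ctrl + Saline mice, and the lowest microglia sum of the Kdm7a-shRNA + Saline mice, 709, lay above the highest of the control-virus mice, 580.

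The genes whose levels over the 16 mice were most like those of each member were found among 12261 others with enough reads, by Pearson's r of log2 normalized CPM. For Slit1 they were Ift57 (0.86), Zfp46 (0.86) and Lrrfip1 (0.84), for Slit2 Rfx7 (0.85), Rasgef1b (0.83) and Elmod1 (0.79), and for Robo1 Rb1cc1 (0.78), Theg (0.78) and Sptbn1 (0.78). Robo2 was closest to Idh3b (0.86), Ift88 (0.85) and Cops7a (0.85), Robo3 to Dhx40 (0.81), Snrnp70 (0.79) and Edc4 (0.79), and Unc5a to Wwc2 (0.90), Ap2a2 (0.89) and Eif5a (0.88). None of these nearest genes was itself a member. The values are the highest of many, share libraries and group differences, and are given as a description.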

How the data were processed

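The deposited count of a gene in a mouse is the number of reads the authors assigned to it, unnormalized. The deposited CPM, made by the authors, equal count over column total to within 4.99e-06 and were used only for that check. Per the methods, reads of quality of at least 7 and 500 bp were kept, rRNA removed, full-length reads clustered on mm10 with minimap2 and Pinfish, merged with cDNA Cupcake, and counted at match quality above 5. The submitters' notes name edgeR 3.8.6.

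From the counts, R 4.3.3 with edgeR 4.0.16 (filterByExpr, TMM, quasi-likelihood test, all 16 mice in 1 fit; adjusted p under 0.05 over 18826 genes, fold of at least 1.5) gave every test. The SE is the absolute log2 difference over the square root of F. DESeq2 1.42.0 was an alternative, as were other scalings, filters, thresholds, sample sets, a replicate block and leaving out each mouse. The code was tested on simulated data. Same-numbered mice are different animals. The p-values set each difference against the spread between mice of a group, estimated over all 16 mice together.

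Named genes are all 10 members, Kdm7a, every passing gene of a pathway list, and the 3 nearest genes per member with a mean of at least 20 counts. Members and lists were chosen with earlier results of these data known. Totals of 6596991 to 12418112 reads and low member counts limit precision. The authors' transcript-level tables and comparisons were not used here.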

Additional observations from a re-analysis of the deposited data

Results flagged for a closer look

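In 30 sets of 4 or 5 mice (10 genes in 3 groups), 2 held a mouse whose gap to the nearest other mouse, relative to the range of its group, was above Dixon's 95% critical value. Chance flags about 1 in 20 such sets. Slit2 was at 5.96 normalized CPM in the lowest Ctrl + Morphine mouse, with the other mice of its group at 9.82 to 10.5. Slit3 was at 2.25 normalized CPM in the highest Kdm7a-shRNA + Saline mouse, with the others at 0.689 to 0.922. Without that mouse, Slit3 differed between the saline groups by -1.53 on the log2 scale (edgeR adjusted p = 0.00251).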

How the results depend on the processing

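Counts of members that passed moved as follows. With libraries scaled by total count alone, which shifts the median of all genes by -0.11 (knockdown under morphine), -0.13 (under saline) and -0.12 (averaged), 2 passed under saline (Robo2 and Slit3) and 2 averaged (Robo3 and Slit3). Of all genes, 3309 then passed under saline and 3444 averaged. With the settings used above, 1448 of 18826 genes passed under morphine, 3151 under saline and 3316 averaged. With at least 10 counts in every mouse, which leaves 5 members, 1 passed under morphine (Slit1), 0 under saline and 0 averaged. Over all genes left by that filter, 697, 1852 and 1525 passed in the same order. DESeq2 called 1 with morphine under the control virus, and 185 genes in all. Fitted without the other groups, 1 passed under morphine (Slit1) and 0 under saline, with 685 and 2882 genes passing in all. With the replicate block, 0 passed under saline (Slit3 at -1.19, adjusted p = 0.0502) and 2 averaged (Robo3 and Slit3). Of all genes, 3198 and 3345 then passed. Same-numbered mice correlated at -0.10 to 0.39 (median 0.01, 21 pairs), so the numbers were not taken to pair mice.

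Without single mice, 0 to 2 members passed under morphine, 0 to 2 under saline and 0 to 1 averaged. The calls over all genes moved too. Where the member count changed, 568 to 1289 genes passed under morphine, 1424 to 3730 under saline and 2753 to 3287 averaged. With all mice these were 1448, 3151 and 3316. Slit1 lost its call without Kdm7a-shRNA + Morphine mouse 3 (adjusted p = 0.0559) or Ctrl + Morphine mouse 4 (0.0603), Robo3 without Kdm7a-shRNA + Morphine mouse 1 or 2 or Ctrl + Morphine mouse 1, 3 or 4, and Slit3 under saline without Kdm7a-shRNA mouse 1, 2, 3 or 5 or Ctrl mouse 2 or 3. The averaged Slit3 call was lost without Kdm7a-shRNA + Morphine mouse 2 or 3, Ctrl + Morphine mouse 2, Kdm7a-shRNA + Saline mouse 2, 3 or 5 or Ctrl + Saline mouse 2 or 3. Robo2 under saline gained it without 1 mouse (adjusted p = 0.0293). Kdm7a under saline lost its call without Ctrl mouse 3 (adjusted p = 0.0533). Kdm7a under morphine gained it with total-count scaling (adjusted p = 0.0301), with DESeq2 (0.0354) and in 3 of 16 fits without single mice, which ranged from 0.0282 to 0.167. The highest adjusted p-values without single mice were 0.0697 for Trim67 (morphine) and, under saline, 0.155 for Robo4 (Ctrl mouse 3), 0.0976 for Ntng1 (Ctrl mouse 2), 0.0641 for Rhoa (Ctrl mouse 2) and 0.0524 for Dag1 (Ctrl mouse 3); averaged, 0.146 for Robo4, 0.0434 for Dock1 and 0.0225 for Trim67. The cause was not tested.

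Values near 0 changed sign. Scaled by total count, Robo1 was at -0.0659 (morphine), -0.0230 (saline) and -0.0444 (averaged) and Robo3 at -0.0231 (saline). With the block Robo3 was at -0.20 (saline) and Ntn1 at 0.00428 (morphine under the knockdown). Among genes with a symbol only, Robo1 was at -0.00393 (morphine). Without single mice the ranges were, for the knockdown under morphine, -0.16 to 0.17 (Robo1), -0.23 to 0.10 (Robo2), -0.87 to 0.00782 (Ntn1) and -0.0524 to 0.66 (Unc5d); under saline, -0.12 to 0.51 (Robo1) and -0.11 to 0.21 (Robo3); averaged, -0.0355 to 0.28 (Robo1) and -0.22 to 0.0227 (Slit2); for morphine under the knockdown, -0.87 to 0.0101 (Ntn1) and -0.0515 to 0.23 (Unc5a); for the interaction, -0.47 to 0.17 (Robo1).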
